A study of Mus musculus with 6 samples.

Results

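Cholesterol and fatty acid synthesis was followed through 29 named genes, of 31053 genes in each count matrix, in cells taken from mouse melanoma tumours. The genes were picked by symbol and fall into 3 groups by role. The cholesterol synthesis group has 19 genes, the fatty acid synthesis group has 7, and the third group has 3 genes that are switched on by the liver X receptors (LXR). All 29 symbols were present in all 6 libraries. Their levels were read in tumour cells, macrophages and endothelial cells, which held 23459, 9806 and 362 of the 43260 cells that passed the filters.

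Cells build cholesterol from acetyl-CoA through the mevalonate pathway, and the transcription factor SREBP2 (gene Srebf2) drives nearly every enzyme of that route when sterols in the endoplasmic reticulum run low. Insig1 holds SREBP2 in the endoplasmic reticulum when sterols are plentiful, and is itself a target of the factor. SREBP1 (gene Srebf1) drives the enzymes that make fatty acids and put double bonds into them. When cells carry too much cholesterol, oxysterols activate LXR, which raises the lipid exporters Abca1 and Abcg1 and Mylip, a ubiquitin ligase. Mylip is an LXR target that limits cholesterol uptake, not an exporter. Macrophages, which take up dead cells and lipoproteins, are the classical setting for LXR-driven efflux.

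Promoters are shown for 5 members because the results below separate genes that moved with the SREBP2 targets from an LXR target that did not. The sequences come from RefSeq (GRCm38.p6, mouse) and run 5′ to 3′ from 250 bases before to 50 bases after the annotated start. Capitals mark the CCAAT box (CCAAT, or ATTGG where it lies on the other strand) and, in Hmgcs1 only, the sterol response motif TCACNCCAC. The windows are chr13:119690101-119690400 (plus strand) for Hmgcs1, chr5:28071162-28071461 (plus) for Insig1, chr5:4104648-4104947 (minus) for Cyp51, chr8:64733529-64733828 (minus) for Msmo1 and chr4:53159846-53160145 (minus) for Abca1.
Hmgcs1: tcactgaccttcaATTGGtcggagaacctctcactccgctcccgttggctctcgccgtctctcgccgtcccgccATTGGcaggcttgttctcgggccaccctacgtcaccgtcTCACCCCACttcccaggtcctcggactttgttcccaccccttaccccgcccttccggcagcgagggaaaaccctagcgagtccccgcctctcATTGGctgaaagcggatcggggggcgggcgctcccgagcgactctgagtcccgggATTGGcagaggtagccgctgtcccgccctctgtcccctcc
Insig1: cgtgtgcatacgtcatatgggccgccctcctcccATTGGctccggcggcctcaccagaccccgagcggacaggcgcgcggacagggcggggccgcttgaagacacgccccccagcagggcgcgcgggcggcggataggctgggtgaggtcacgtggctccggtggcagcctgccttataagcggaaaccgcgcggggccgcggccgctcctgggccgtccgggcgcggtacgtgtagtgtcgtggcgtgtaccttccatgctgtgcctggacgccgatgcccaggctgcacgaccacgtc
Cyp51: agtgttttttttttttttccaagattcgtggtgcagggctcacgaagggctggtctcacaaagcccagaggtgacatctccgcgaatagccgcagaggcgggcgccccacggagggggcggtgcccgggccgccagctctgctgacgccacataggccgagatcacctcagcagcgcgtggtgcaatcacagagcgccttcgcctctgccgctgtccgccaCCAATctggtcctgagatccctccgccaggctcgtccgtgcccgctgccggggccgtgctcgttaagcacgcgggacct
Msmo1: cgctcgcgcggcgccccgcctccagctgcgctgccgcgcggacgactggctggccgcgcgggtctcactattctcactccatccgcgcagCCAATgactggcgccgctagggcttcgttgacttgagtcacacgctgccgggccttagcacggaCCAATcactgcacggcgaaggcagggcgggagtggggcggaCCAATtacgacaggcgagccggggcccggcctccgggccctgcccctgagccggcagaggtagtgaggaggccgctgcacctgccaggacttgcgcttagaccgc
Abca1: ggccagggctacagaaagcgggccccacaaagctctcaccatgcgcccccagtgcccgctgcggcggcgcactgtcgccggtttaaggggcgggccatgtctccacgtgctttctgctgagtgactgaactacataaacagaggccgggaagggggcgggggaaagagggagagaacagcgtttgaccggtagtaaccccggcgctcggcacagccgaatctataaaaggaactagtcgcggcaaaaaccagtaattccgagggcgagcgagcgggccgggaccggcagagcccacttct

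A promoter was found for 22 of the 29 genes, and Sqle, Fdft1, Fdps, Stard4, Scd1, Scd2 and Abcg1 had no entry. On either strand the CCAAT box stood in 14 of the 15 cholesterol synthesis promoters. It stood in 37.4% of 32851 mouse promoters of the same length and, counted by gene, in 41.1% of 27025 genes. Acat2 was the 1 cholesterol synthesis promoter without it. The box stood in 3 of 5 fatty acid synthesis promoters and in Mylip but not Abca1 among the 2 LXR targets. The sterol motif TCACNCCAC was found in Hmgcs1 alone, and in 1.24% of all promoters. The E-box CACGTG was found in 5 of the 22 promoters (Insig1, Sc5d, Dhcr7, Hsd17b7 and Abca1), in 7.15% of all promoters and in 8.09% of genes. The GC box GGGCGG was found in 18 of the 22, in 35.7% of all promoters and in 38.2% of genes. Like the CCAAT box, it stood in 14 of the 15 cholesterol synthesis promoters. These are letter matches in a short window and do not show binding.

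The tumours grew from Yumm5.2, a mouse melanoma line. All cells, controls included, carried a pLKO.1 short hairpin RNA against Cdkn2a. A second hairpin, either a control sequence or 1 of 2 that target Slc39a9, was added, and the cells were drug-selected as infected cultures. Each C57BL/6 mouse was given 350000 cells under the skin of the flank. Mice received 200 µg of anti-PD1 or IgG into the peritoneum 3 times a week from the time the tumour could be felt, and tumours were taken at 0.5 cm3. Each of the 3 lines gave 1 library per treatment, so the 4 groups were control hairpin with IgG (1 library), control hairpin with anti-PD1 (1), Slc39a9 hairpins with IgG (2, 1 per hairpin) and Slc39a9 hairpins with anti-PD1 (2, 1 per hairpin). The number of tumours behind each library is not stated. Because each hairpin is 1 infected line, a difference between a hairpin line and the control line describes those lines, and p-values measure only the spread between these libraries.

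The libraries held 58859821 to 83204249 UMIs (unique molecular identifiers, counted as RNA molecules), of which tumour cells held 44103517 to 67659302, macrophages 5399093 to 7896653 and endothelial cells 303131 to 799262. Libraries shared many cell barcodes. Of 13064 distinct barcodes, 3127 occurred in all 6 libraries, and the log2 UMI totals of shared barcodes correlated at r = 0.941 to 0.984 between pairs of libraries. Whether a shared barcode was a macrophage was nearly unrelated between libraries once UMI totals were matched (r = -0.046 to 0.030), and at most 4 shared barcodes of any pair had equal totals. The counts were therefore kept as separate libraries, and the source of the sharing was not tested. Slc39a9 in tumour cells stood at 22.9 (IgG) and 20.9 (anti-PD1) CPM (depth-scaled counts: the gene's share of all UMIs of that class and library, on the usual scale of the unit) in the control line, at 8.08 and 8.37 in the hairpin 1 line, and at 12.1 and 11.1 in the hairpin 2 line. Tumour cells were barcodes with at most 1 Tyrobp UMI, no Ptprc UMI, at least 5 UMIs of Spp1, Grem1 and Cdkn2a together and at least 3000 UMIs in all, and macrophages had at least 3 UMIs of C1qa, C1qb and C1qc together. In macrophages, which carry no hairpin, Slc39a9 stood at 21.4 to 25.7 CPM in all 6 libraries. The pigment cell genes Sox10, Pmel, Tyr, Mlana and Dct were at or near 0 in the tumour cells, so the melanoma identity rests on the line and the rule markers and not on pigment genes. With Pax3, Mitf and Xist added, the list of 8 summed to 126 to 232 CPM in tumour cells and 128 to 156 in macrophages. As a sum it did not separate the classes. Pax3 and Xist stood in macrophages at 7.42% to 18.4% and 9.42% to 17.0% of their tumour levels. A list of 7 macrophage markers outside the rules (Csf1r, Adgre1, Cd68, Lyz2, Mrc1, Fcgr1 and Mertk) summed to 64.5 to 81.8 CPM in tumour cells and to 10482 to 13296 CPM in macrophages. A list of 5 adipocyte markers summed to 0.030 to 0.089 CPM in tumour cells, with Cfd and Lep at 0, and a list of 5 sebaceous and keratinocyte markers to 0.19 to 1.18 CPM, with Krt5 at 0. Other lists were not near 0 in tumour cells: 4 fibroblast markers (Col1a1, Dcn, Lum and Pdgfra) summed to 741 to 877 CPM, against 94.9 to 155 CPM in macrophages, and 4 pericyte markers to 64.2 to 87.7 CPM. Fdft1, Cyp51, Srebf1, Mvd and Acaca overlap another gene on the opposite strand and Fdps overlaps one on its own strand, and whether the counting used strand is not given in the sources used here, so their values are uncertain to that extent.

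Tumour cells and macrophages divided the 29 genes by role. In macrophages 15 of the 19 cholesterol synthesis genes and 6 of the 7 fatty acid synthesis genes were lower than in tumour cells of the same libraries, and all 3 LXR targets were higher. The comparison used 12 sums, 1 per class and library, with the library as a block (edgeR quasi-likelihood test, Benjamini-Hochberg adjustment over 15907 genes, adjusted p under 0.05 called a difference). The classes are unlike throughout, and 80% of all tested genes were called, 39% higher and 41% lower in macrophages, so 26 of 29 called members is near the background. The median log2 fold change was -0.92 for cholesterol synthesis, -1.52 for fatty acid synthesis, 2.45 for LXR targets and -0.03 for all tested genes.

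Scd1, the desaturase that makes oleate and palmitoleate, had the largest gap among the synthesis genes. Its macrophage levels were 12.4 (IgG) and 15.2 CPM (anti-PD1) in the control line, 6.69 and 9.35 in the hairpin 1 line, and 11.5 and 16.2 in the hairpin 2 line. Tumour cells of the same libraries held 97.6 and 99.5, 68.8 and 68.3, and 68.7 and 84.3 CPM. No macrophage value reached a tumour value, and the log2 fold change was -2.76 ± 0.11 (SE, 6 libraries, edgeR adjusted p = 5.3e-09). Fasn, fatty acid synthase, ran from 13.7 to 21.9 CPM in macrophages and from 65.6 to 87.7 in tumour cells (log2 fold change -2.17 ± 0.07). Elovl6, which lengthens palmitate to stearate, ran from 11.9 to 18.1 CPM in macrophages and from 45.2 to 82.4 in tumour cells (-2.06 ± 0.07). The desaturase Scd2 fell between these and the regulators (-1.52 ± 0.06), whereas Srebf1 (-0.29 ± 0.05) and the citrate-cleaving enzyme Acly (-0.17 ± 0.07) were lower by little. The call for Acly was lost in 4 of 7 other settings, DESeq2 among them, and in 5 of 6 fits that left out 1 library. Acaca, which makes malonyl-CoA, was not called (-0.14 ± 0.07, edgeR adjusted p = 0.10). The first enzymes of the group and its regulator thus differed by little between the classes, and the synthase, the elongase and the desaturases by much more.

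Among the cholesterol synthesis genes, squalene epoxidase (Sqle), a rate-controlling enzyme of the route, differed most. Macrophages held 16.3 to 29.4 CPM of Sqle and tumour cells 68.6 to 87.0, so that the log2 fold change was -1.78 ± 0.09 (edgeR adjusted p = 3.8e-08). Fdps, which makes farnesyl diphosphate, followed (-1.53 ± 0.06), then the sterol ketone reductase Hsd17b7 (-1.52 ± 0.09), lanosterol synthase Lss (-1.44 ± 0.12), squalene synthase Fdft1 (-1.28 ± 0.06) and the lanosterol demethylase Cyp51 (-1.26 ± 0.08). Fdps, Fdft1, Sqle and Lss act in sequence up to lanosterol, and Cyp51 and Hsd17b7 act after it. Msmo1, Idi1, Acat2, Dhcr7, Sc5d, Hmgcs1, Srebf2, Nsdhl and Insig1 were lower by 1.13 to 0.35 on the log2 scale. Here Acat2 is the cytosolic acetoacetyl-CoA thiolase at the head of the route, not the sterol acyltransferase that shares the abbreviation.

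Not every cholesterol synthesis gene was lower in macrophages. Pmvk, phosphomevalonate kinase, stood at 65.4 and 67.5 CPM in control line macrophages, 45.1 and 40.4 in those of the hairpin 1 line, and 63.2 and 64.4 in those of the hairpin 2 line. Tumour cells held 14.5 to 27.5 CPM, so the groups did not overlap and the log2 fold change was 1.55 ± 0.20 (edgeR adjusted p = 5.1e-05). Mvd, the next enzyme, was higher by 0.29 ± 0.10, with adjusted p = 0.026 that rose above 0.05 in macrophages low in tumour RNA and when no low-count filter was used. Mevalonate kinase Mvk (-0.19 ± 0.08) and the sterol transfer protein Stard4 (0.17 ± 0.12) were not called. The 3 enzymes that act on mevalonate in sequence thus did not share the difference of the later enzymes.

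All 3 LXR targets were higher in macrophages in each library. Abcg1, which passes cholesterol to HDL, stood at 224 and 228 CPM in control line macrophages, 168 and 142 in those of the hairpin 1 line, and 281 and 258 in those of the hairpin 2 line, against 5.52 to 11.4 CPM in tumour cells. That is a 29.8-fold difference (log2 fold change 4.90 ± 0.12, edgeR adjusted p = 2.8e-10). Abca1, which loads cholesterol onto apolipoprotein A-I, stood at 427, 359, 361, 307, 336 and 337 CPM in macrophages of the control, hairpin 1 and hairpin 2 lines (IgG before anti-PD1 in each) and at 46.9 to 85.8 CPM in tumour cells (5.47-fold). Mylip ran from 92.5 to 133 CPM in macrophages and from 24.1 to 42.9 in tumour cells (3.86-fold). Of the 6 further LXR pathway genes tested, 5 were higher in macrophages and none lower, where 39% of all genes were higher and 41% lower.

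Macrophage sums carried tumour RNA. Grem1, a tumour rule marker, stood in macrophages at 12.4% to 19.3% of its tumour level, and Scd1 at 9.73% to 19.2%. In the 8533 macrophages with at most 1 Grem1 UMI 26 members were again called, 4 higher and 22 lower. Of all genes 80.4% were called there, 37.4% higher and 43% lower. Grem1 stood at 1.83% to 2.31% of the tumour level, which this filter fixed. Tumour markers outside the filter stood at 3.73% to 5.51% (Cdkn2a), 3.61% to 9.82% (Pax3) and 3.18% to 6.60% (Xist). Scd1 differed by -4.12 ± 0.14 and Sqle by -2.11 ± 0.14. Scd1 stood at 3.73% to 8.82% of its tumour level, a range that overlaps those of the 3 markers, so its macrophage level is uncertain.

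**Figure D1:**
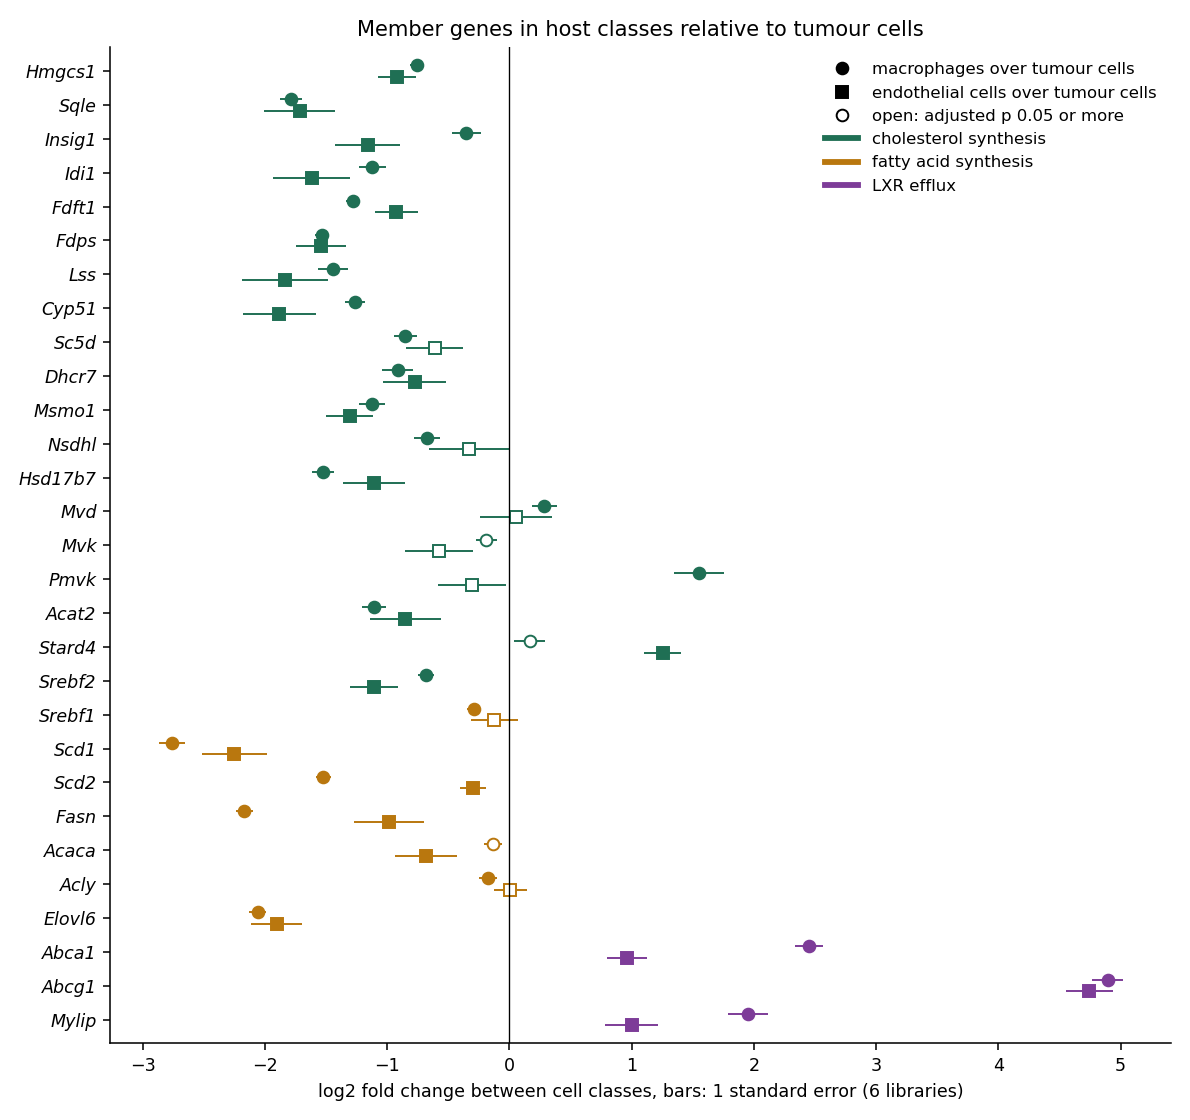
Log2 fold change of each of the 29 genes in macrophages (circles) and endothelial cells (squares) over tumour cells of the same 6 libraries, with 1 standard error; open symbols have an edgeR adjusted p of 0.05 or more. Most cholesterol (green) and fatty acid (orange) synthesis genes lie left of 0, and the 3 LXR targets (purple) lie right of 0, with Abcg1 at 4.90 in macrophages and 4.75 in endothelial cells.

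Endothelial cells resembled macrophages in direction for most members. Of the 29 genes, 18 were lower and 4 higher than in tumour cells, against 35.6% of 14659 tested genes called, 15.9% higher and 19.7% lower. The median log2 fold change was -0.92 for cholesterol synthesis, -0.68 for fatty acid synthesis and 1.00 for LXR targets, and -0.16 for all tested genes. Stard4, which moves sterol between membranes and is an SREBP2 target, went the other way from the enzymes. It stood at 53.9 and 78.8 CPM in the control line, 106 and 125 in the hairpin 1 line, and 76.4 and 73.8 in the hairpin 2 line, above every tumour value (25.6 to 38.6 CPM), and the difference was 1.25 ± 0.15 on the log2 scale (edgeR adjusted p = 1.5e-05). Abcg1 was 26.8-fold higher in endothelial than in tumour cells (155 to 333 CPM), and Abca1 (0.96 ± 0.16) and Mylip (1.00 ± 0.22) were higher by less. Scd1 (-2.25 ± 0.26), Elovl6 (-1.91 ± 0.21), Cyp51 (-1.88 ± 0.30) and Lss (-1.84 ± 0.35) had the lowest fold changes in these sums. The calls for Acaca, Acat2, Dhcr7 and Scd2 were lost in 3 to 5 of 7 other settings each. Endothelial sums rest on 25 to 89 cells per library. Grem1 in them ranged from 2.21% to 97.2% of the tumour level. In the 323 endothelial cells that did not also meet the tumour rule the counts were 19 lower and 4 higher, against 49.5% of genes, 30% lower and 19.5% higher. Fold changes there were larger for many members, and Elovl6 (-1.84 ± 0.26) was no longer among the lowest. Lss gave -4.20 ± 0.51, Cyp51 -3.50 ± 0.34, Sqle -3.45 ± 0.32, Stard4 1.70 ± 0.17 and Abcg1 5.41 ± 0.15. Lss stood at 0 to 4.90 CPM in these cells. Cyp51 stood at 0 to 37.0 CPM and Sqle at 3.00 to 31.7, both highest in the hairpin 1 IgG library. Scd1 was at 4.90 and 3.51 CPM in the control line and at 0 in the other 4 libraries. At the depth of this class such low levels rest on few UMIs, so the sizes of these negative fold changes are uncertain.

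Within the tumour cells, the synthesis genes were higher in the same cells, and the LXR targets were not. Each tumour cell was thinned to 3000 UMIs, and cells with at least 1 thinned UMI of Hmgcs1, Sqle or Idi1 (890 to 1537 cells per library, 30.1% to 34.2%) were set beside cells with none (1836 to 3187). All values here describe these cells and carry no test, and the 3 ordering genes are left out. The 16 other cholesterol synthesis genes were each higher in the cells with an ordering UMI in all 6 libraries, with a median log2 ratio of 1.17. The 7 fatty acid synthesis genes were also higher in all 6 libraries, with a median of 0.38. Abca1 and Mylip, the LXR targets above 10 CPM, were lower in all 6 (median -0.51). Among all 8452 genes at 10 CPM or more the median was -0.01, and 1501 were higher and 1421 lower in all 6 libraries.

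A ratio of at least 2 in every library was met by 8 of the 8452 genes (0.0947%), and 6 of the 8 are members. Cyp51 led with 121 to 153 CPM in cells with an ordering UMI and 29.6 to 45.7 CPM in cells without (median log2 ratio 1.93). Msmo1, the methylsterol oxidase that acts after Cyp51, had 176 to 210 CPM against 44.6 to 55.9 (1.92). Fdps (1.63), Stard4 (1.33), Elovl6 (1.30) and Insig1 (1.30) followed. Stard4 had 40.4 to 58.5 CPM against 14.1 to 23.1. Elovl6 was the 1 fatty acid gene in this set, and its ratio stood far from those of Fasn (0.51), Scd1 (0.41), Scd2 (0.38), Acly (0.33), Acaca (0.22) and Srebf1 (0.20).

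The transcription factor gene Srebf2 itself had a median log2 ratio of 0.89. The proteins that carry and cleave SREBP2 did not share the pattern, with -0.19 for Scap and -0.21 for Mbtps1, nor did the lysosomal cholesterol carriers Npc1 (-0.13) and Npc2 (-0.18). Mylip had 20.4 to 34.3 CPM in cells with an ordering UMI and 37.3 to 59.5 in cells without (median -0.81), with no overlap between the ranges. Abca1 was lower by less (-0.21). The housekeeping genes Gapdh (0.01) and Eef1a1 (-0.13) stood near 0. Cells with a cycling UMI (Mki67, Top2a, Cdk1 or Ccnb1, after thinning) made up 26.6% to 44.2% of the cells with an ordering UMI and 19.9% to 34.1% of those without. In the cells with no cycling UMI after thinning the medians were 1.20, 0.34 and -0.41 for the 3 groups. Acaca (lowest ratio -0.06) and Abca1 (highest 0.004) did not keep their direction in every library there. Before thinning 46.3% to 64.9% of tumour cells per library had a cycling UMI, so cycling cells remain among those kept.

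**Figure D2:**
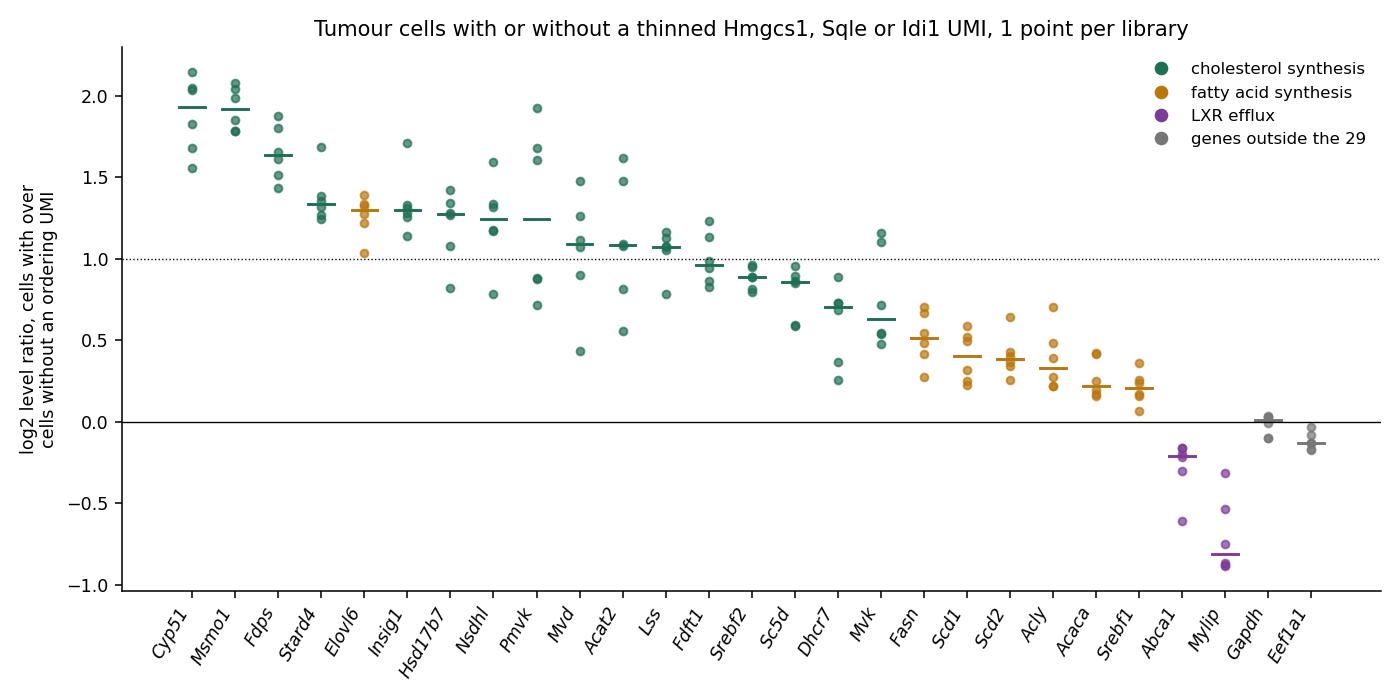
Log2 ratio of each gene's level in tumour cells with over without a thinned Hmgcs1, Sqle or Idi1 UMI, 1 point per library with the median as a bar; the dotted line marks a 2-fold ratio. The cholesterol synthesis genes (green) lie above 0 in all 6 libraries, the fatty acid genes (orange) lower but above 0, and Abca1 and Mylip (purple) below 0.

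Tumour cells of the hairpin 1 line differed from those of the control line in 17 of the 29 genes, 14 higher and 3 lower (edgeR, line and treatment in the fit, 2 residual degrees of freedom). Of all 15688 tested genes 42.4% were called, 21.4% higher and 21.1% lower. The higher genes were 9 of 19 in cholesterol synthesis, 4 of 7 in fatty acid synthesis and Mylip. The lower ones were Dhcr7, Scd1 and Abca1. Median log2 fold changes were 0.15, 0.29 and -0.22 for the 3 groups and 0.01 for all genes. The 2 libraries of a line differ in treatment, so the spread in this fit includes whatever the antibody did.

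Acat2 stood at 13.7 (IgG) and 14.7 CPM (anti-PD1) in the control line, at 25.0 and 27.4 in the hairpin 1 line, and at 15.7 and 17.1 in the hairpin 2 line. Only the hairpin 1 values stood clear of the rest, 0.79 ± 0.07 above control on the log2 scale (edgeR adjusted p = 0.00028). Its near-copy Acat3 had 75 to 101 UMIs per library against 917 to 1329 for Acat2. Pmvk followed the same order, with 14.5 and 16.6, then 26.7 and 27.5, then 18.3 and 18.4 CPM (0.71 ± 0.08 for hairpin 1 over control, edgeR adjusted p = 0.00059). Fdps was at 73.4 and 79.1 CPM in the control line, 107 and 109 in the hairpin 1 line, and 94.5 and 93.3 in the hairpin 2 line (0.41 ± 0.06). Stard4 was at 25.6 and 27.2, 38.6 and 35.9, and 37.2 and 36.7 CPM, so that both hairpin lines stood above the control line at nearly the same level (0.40 ± 0.07). Insig1 (0.36 ± 0.06), Cyp51 (0.34 ± 0.07), Hmgcs1 (0.22 ± 0.06), Sqle (0.19 ± 0.06) and Srebf2 (0.19 ± 0.05) were higher by less. The calls for Sqle and Srebf2 were lost with DESeq2 and with no low-count filter. They were also lost in 3 (Sqle) and 4 (Srebf2) of 6 fits that left out 1 library, and the Hmgcs1 call in 3 of 6.

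Dhcr7, whose product makes cholesterol from 7-dehydrocholesterol in the last step, moved against the other enzymes. Its levels were 48.3 and 50.3 CPM in the control line, 28.5 and 29.7 in the hairpin 1 line, and 36.6 and 42.1 in the hairpin 2 line. The 3 lines did not overlap, and hairpin 1 differed from control by -0.85 ± 0.06 (edgeR adjusted p = 0.00016). The genes that did not pass in this comparison were Idi1, Fdft1, Lss, Sc5d, Msmo1, Nsdhl, Hsd17b7, Mvd and Mvk, with log2 fold changes between -0.19 and 0.15.

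In fatty acid synthesis, Elovl6 had the largest gain. It stood at 45.2 and 48.0 CPM in the control line, 69.7 and 82.4 in the hairpin 1 line and 56.5 and 60.4 in the hairpin 2 line (0.61 ± 0.06 for hairpin 1 over control, edgeR adjusted p = 0.0004). The desaturases went in opposite directions. Scd1 fell from 97.6 and 99.5 CPM to 68.8 and 68.3 in the hairpin 1 line (-0.61 ± 0.08, edgeR adjusted p = 0.0015) and stood at 68.7 and 84.3 in the hairpin 2 line. Scd2 rose from 279 and 271 CPM to 379 and 375 in the hairpin 1 line (0.36 ± 0.07), with 231 and 265 in the hairpin 2 line. Fasn (0.29 ± 0.05) and Acaca (0.34 ± 0.09) were higher, and Srebf1 (0.00 ± 0.06) and Acly (-0.04 ± 0.06) did not pass.

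The LXR targets did not move as a group. Abca1 stood at 85.8 and 84.3 CPM in the control line, 49.6 and 46.9 in the hairpin 1 line and 61.8 and 76.0 in the hairpin 2 line, and hairpin 1 differed from control by -0.91 ± 0.10 (edgeR adjusted p = 0.00055). Mylip rose from 28.9 and 28.8 CPM to 39.7 and 42.9 in the hairpin 1 line (0.42 ± 0.07), against 24.1 and 28.1 in the hairpin 2 line. Abcg1, at 5.89 and 7.62, 5.52 and 6.76, and 7.43 and 11.4 CPM, was not called (-0.22 ± 0.12). Of the other genes of these pathways, 4 of 14 cholesterol genes were higher and 5 lower in the hairpin 1 line, 3 of 9 fatty acid genes were higher and 3 lower, and 1 of 5 LXR genes was higher and 2 lower. Of all genes 21.4% were higher and 21.1% lower, and nothing is read from these small lists.

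**Figure D3:**
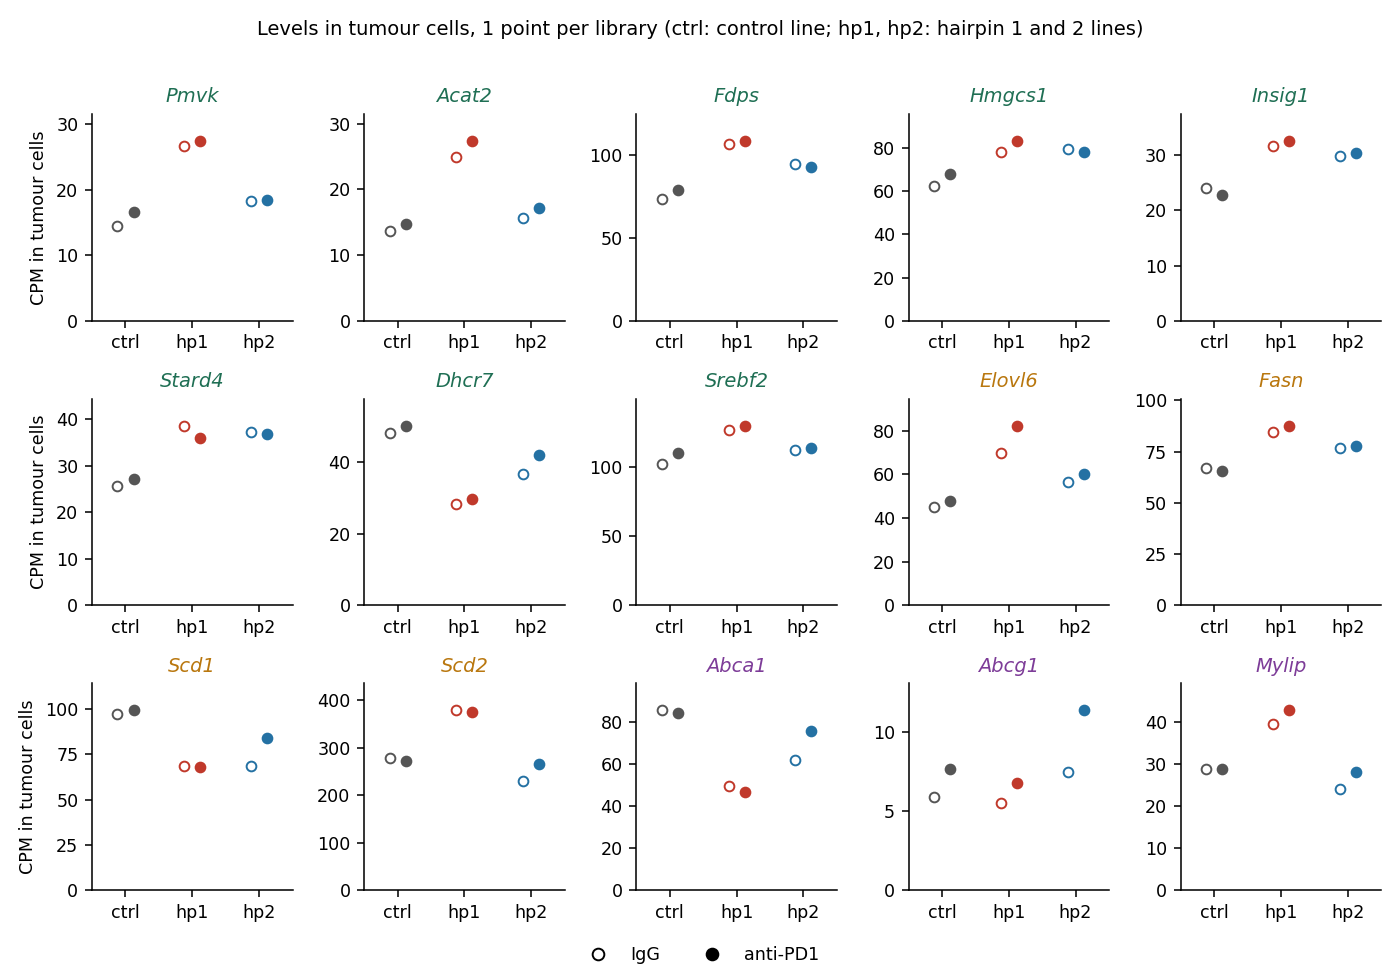
Level in tumour cells (CPM) of 15 members in each library, with open points for IgG and filled points for anti-PD1 and titles coloured by group (green cholesterol, orange fatty acid, purple LXR). Acat2, Pmvk, Scd2 and Mylip are highest in the hairpin 1 line, and Dhcr7 and Abca1 are lowest there.

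Cycling cells and RNA of other cell types moved with the line differences in tumour cells. A list of 6 neutrophil markers summed to 56.3 to 67.5 CPM in tumour cells of the control line, 9.41 to 11.1 in the hairpin 1 line and 19.7 to 29.9 in the hairpin 2 line. A list of 6 endothelial markers summed to 44.5 to 46.4, 22.7 to 29.1 and 29.3 to 43.8 CPM in the same order, and the part of either in the results was not tested. After thinning to 3000 UMIs, 22.9% and 22.7% of control line tumour cells had a cycling UMI, against 32.5% and 37.3% in the hairpin 1 line and 33.6% and 29.1% in the hairpin 2 line. Without thinning the shares were 46.3% to 48.7%, 62.4% to 64.9% and 54.6% to 58.7%. The 4 cycling genes summed to 366 and 346 CPM in the control line, 533 and 693 in the hairpin 1 line and 594 and 516 in the hairpin 2 line. The comparison was therefore repeated on the 10582 tumour cells with no cycling UMI before thinning.

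In those cells 13 members were called in the hairpin 1 line, 6 higher and 7 lower, against 39.4% of 13620 genes, 19.5% higher and 19.9% lower. Of the 17 members called in all tumour cells, 9 were called again with the same sign, namely Dhcr7 (-0.99 ± 0.10), Pmvk (0.66 ± 0.11), Acat2 (0.65 ± 0.12), Scd1 (-0.77 ± 0.07), Scd2 (0.38 ± 0.07), Acaca (0.38 ± 0.11), Elovl6 (0.34 ± 0.08), Abca1 (-0.68 ± 0.09) and Mylip (0.66 ± 0.08). Of the 6654 genes called in all tumour cells, 4392 were called again with the same sign, so nothing is read from the 9 of 17 as a count. The smaller gains of the classical SREBP2 targets did not pass. Hmgcs1 gave 0.07 ± 0.09, Sqle -0.049 ± 0.07, Insig1 0.18 ± 0.10, Fdps 0.12 ± 0.07, Cyp51 0.16 ± 0.10, Stard4 0.21 ± 0.12, Srebf2 -0.09 ± 0.07 and Fasn 0.13 ± 0.07. Msmo1 (-0.48 ± 0.08), Idi1 (-0.46 ± 0.09), Acly (-0.26 ± 0.08) and Sc5d (-0.25 ± 0.08) were called lower, and the cholesterol synthesis median was 0.01. Msmo1 in these cells stood at 105.7 and 106 CPM in the control line, 87.0 and 74.1 in the hairpin 1 line, and 95.3 and 100.5 in the hairpin 2 line.

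**Figure D4:**
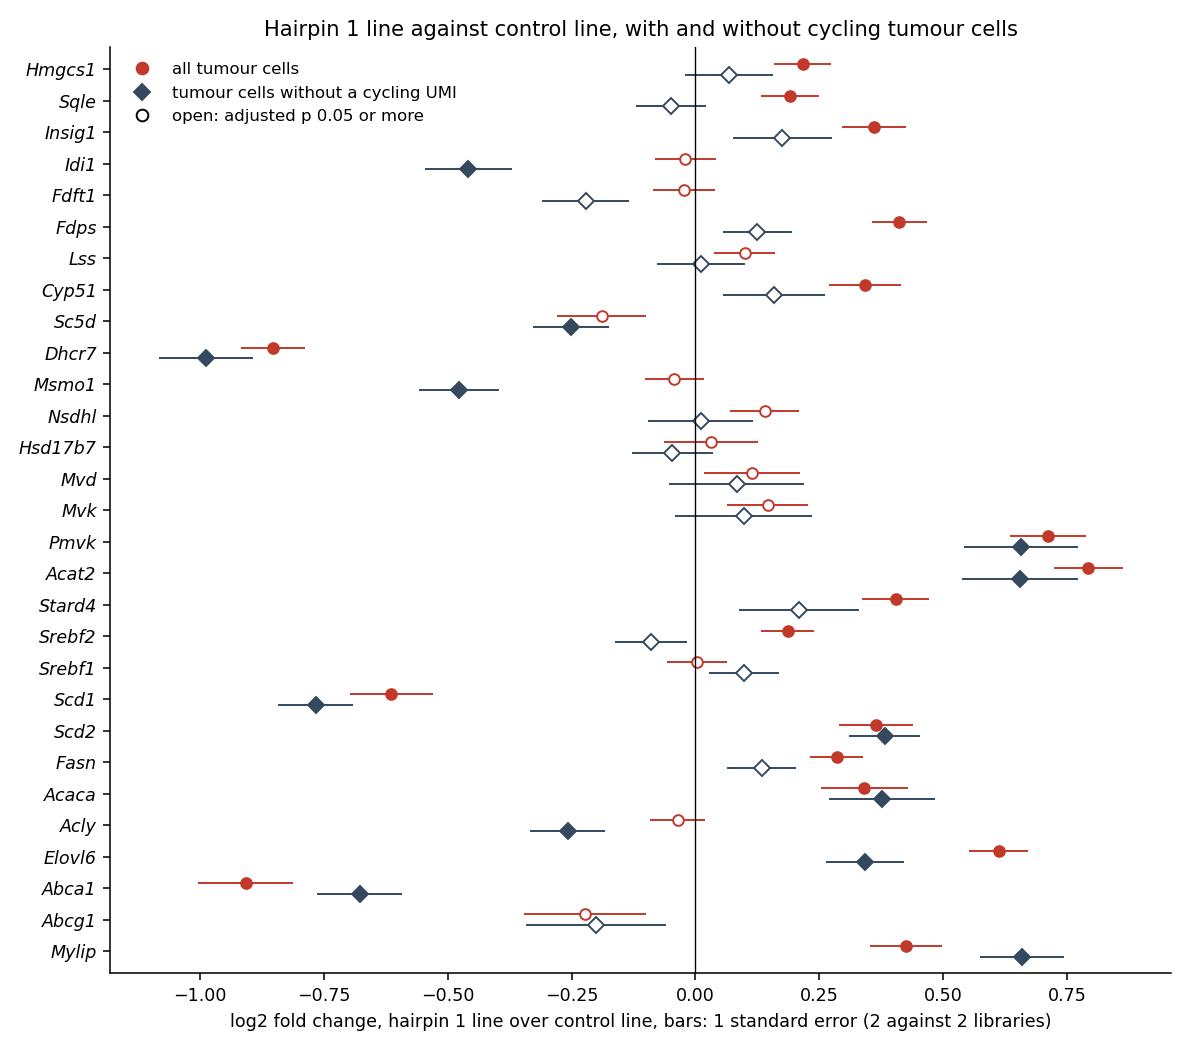
Log2 fold change of each of the 29 genes in tumour cells of the hairpin 1 line over the control line (2 against 2 libraries, bars 1 standard error), in all tumour cells (circles) and in those without a cycling UMI (diamonds); open symbols have an edgeR adjusted p of 0.05 or more. Dhcr7, Scd1 and Abca1 stay left of 0 and Pmvk, Acat2 and Mylip right of 0 in both, whereas Idi1 and Msmo1 lie left of 0 with a call only in cells without a cycling UMI.

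In the hairpin 2 line 8 members were called, all of them also called with the same sign in the hairpin 1 line. Against the control line Stard4 (0.43 ± 0.07), Insig1 (0.30 ± 0.06), Elovl6 (0.27 ± 0.06), Fdps (0.24 ± 0.06) and Hmgcs1 (0.22 ± 0.06) were higher, and Scd1 (-0.43 ± 0.08), Dhcr7 (-0.39 ± 0.06) and Abca1 (-0.37 ± 0.09) were lower, 8 of 29 against 15.6% of all genes, 8.01% higher and 7.62% lower (edgeR adjusted p = 0.011 to 0.045). Both hairpin lines are set against the same 2 control libraries, so a shared direction is no independent repeat. The 8 calls depended on single libraries: 0 were left without the control IgG library, 0 without the hairpin 2 IgG library and 3 without the control anti-PD1 library. In tumour cells with no cycling UMI 7 members were called, 4 higher and 3 lower, against 17.7% of genes, 8.67% higher and 9.04% lower. Of these 7, 5 are among the 8, where 1675 of the 2412 genes called in these cells were also called in all tumour cells.

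The hairpin lines differed from each other in 8 members, against 30.2% of all genes, 15.7% higher and 14.5% lower in hairpin 2. Dhcr7 (0.47 ± 0.07), Abca1 (0.54 ± 0.10) and Abcg1 (0.63 ± 0.12) were higher in the hairpin 2 line, and Mylip (-0.63 ± 0.07), Acat2 (-0.64 ± 0.07), Scd2 (-0.57 ± 0.07), Pmvk (-0.53 ± 0.08) and Elovl6 (-0.34 ± 0.06) were lower (edgeR adjusted p = 0.001 to 0.009). Hmgcs1 (0.00 ± 0.06), Stard4 (0.02 ± 0.07), Sqle (-0.04 ± 0.06) and Insig1 (-0.06 ± 0.06) had the smallest differences of the cholesterol genes called in hairpin 1. In cells with no cycling UMI 8 members were called, 6 higher and 2 lower, against 25.9% of genes, 12.9% higher and 13% lower. Acat2, Pmvk and Elovl6 were no longer among them, and Idi1, Msmo1 and Scd1 were added. Of the 3532 genes called in these cells, 2933 were also called in all tumour cells.

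With both hairpins pooled, no member differed between knockdown and control in tumour cells. edgeR called 0 of 15688 genes (percent called 0), with 3126 at an unadjusted p under 0.05, and 0 of 29 members, with 11 at an unadjusted p under 0.05. DESeq2 called 1427 genes and 6 members, with Hmgcs1, Insig1, Fdps and Stard4 higher and Dhcr7 and Scd1 lower. The edgeR log2 fold changes ran from -0.61 ± 0.22 for Abca1 to 0.51 ± 0.25 for Acat2, with 0.41 ± 0.07 for Stard4 and -0.60 ± 0.18 for Dhcr7. Without a test, 15 members stood above both control libraries in all 4 knockdown libraries, 12 of them in cholesterol synthesis, where 29.1% of all genes did so. Dhcr7, Scd1 and Abca1 stood below both, as did 14.5% of all genes. These counts use unscaled CPM, in which the median gene stood 0.091 (hairpin 1) and 0.059 (hairpin 2) above control on the log2 scale. Scaling brought these medians to 0.006 and 0.003, so the unscaled counts lean towards higher in knockdown. Among the 15, the scaled hairpin 2 fold change was -0.001 for Mvk, 0.03 for Mvd and 0.03 for Srebf2.

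Anti-PD1 changed no member detectably in tumour cells. edgeR called 0 of 15688 genes, with 128 at an unadjusted p under 0.05 and no member among them, and DESeq2 called 0. The fit pooled both hairpin lines and did not pair libraries by line, so differences between the hairpin lines entered its spread. With the line as a block, anti-PD1 again called 0 members. The member log2 fold changes over IgG ran from -0.08 (Acly) to 0.45 ± 0.25 (Abcg1), with a median of 0.05. Abcg1 was higher under anti-PD1 in each line, at 7.62 against 5.89 CPM, 6.76 against 5.52 and 11.4 against 7.43. Anti-PD1 stood above IgG in all 3 lines for 7 members (Dhcr7, Nsdhl, Pmvk, Acat2, Srebf2, Elovl6 and Abcg1), as for 13.3% of all genes, and below for Acly, as for 15.3%.

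Macrophages showed their own differences between lines. In macrophages from hairpin 1 tumours 7 members were called against those from control tumours, 3 higher and 4 lower, where 9.22% of 12647 genes were called, 4.32% higher and 4.9% lower. Srebf2 stood at 66.1 and 62.4 CPM in macrophages of control tumours, 87.8 and 84.5 in those of hairpin 1 tumours, and 64.3 and 62.7 in those of hairpin 2 tumours (0.40 ± 0.08 for hairpin 1, edgeR adjusted p = 0.013). Cyp51 was at 30.9 and 30.0, 42.2 and 42.1, and 26.5 and 31.3 CPM (0.44 ± 0.12, adjusted p = 0.045), and Fdps at 25.8 and 25.8, 35.4 and 41.4, and 30.7 and 30.3 CPM (0.55 ± 0.12, adjusted p = 0.020). In each of these genes the hairpin 1 tumours held the highest values.

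In the same macrophages 2 of the 3 LXR targets, Abcg1 and Mylip, were lower. Abcg1 at 168 and 142 CPM in hairpin 1 tumours stood below 224 and 228 in control and 281 and 258 in hairpin 2 tumours (-0.58 ± 0.08 against control, edgeR adjusted p = 0.0021). Mylip was at 133 and 130 CPM, then 102 and 92.5, then 132 and 131 in the control, hairpin 1 and hairpin 2 tumours (-0.47 ± 0.08, adjusted p = 0.0048). Pmvk was lower (-0.67 ± 0.10, adjusted p = 0.0021), as was Scd1 (-0.81 ± 0.19, adjusted p = 0.024), and Abca1 was not called (-0.26 ± 0.08, adjusted p = 0.086). DESeq2 called Abcg1, Mylip and Pmvk alone, and the count fell to 3 without the control anti-PD1 library and to 4 without either hairpin 1 library.

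Hairpin 2 macrophages gave 0 calls against control for the members, where 3.87% of genes were called, and 0 by DESeq2. An unadjusted p under 0.05 was reached by 8 members. The share of all genes at that threshold is not given here, so nothing is read from that count. Against hairpin 1 macrophages 9 members were called, against 7.77% of genes, 4% higher and 3.77% lower. Abcg1 (0.79 ± 0.08), Scd1 (0.77 ± 0.19), Pmvk (0.56 ± 0.10) and Mylip (0.43 ± 0.08) were higher in hairpin 2, and Stard4 (-0.70 ± 0.12), Nsdhl (-0.70 ± 0.18), Cyp51 (-0.56 ± 0.12), Srebf2 (-0.46 ± 0.08) and Scd2 (-0.33 ± 0.08) were lower. Stard4 was at 46.0 and 48.0 CPM in macrophages of hairpin 1 tumours against 26.9 and 31.5 in those of hairpin 2 tumours. DESeq2 called 2 of the 29, Abcg1 and Stard4, and leaving out a hairpin library left 2 to 5.

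Tumour RNA, cycling and markers of other cell types moved with these differences. Grem1 in macrophages stood at 12.4% to 12.5% of the tumour level in hairpin 1 tumours and at 16.8% to 19.3% in the others. Cycling genes summed to 752 and 772 CPM in hairpin 1 macrophages, 305 and 371 in control and 481 and 424 in hairpin 2 macrophages. The neutrophil list summed to 138 CPM in both control libraries, 43.7 to 47.7 in hairpin 1 and 61.5 to 73.1 in hairpin 2 macrophages, and the pericyte list to 47.6 to 64.3, 64.0 to 83.1 and 20.9 to 24.9 CPM. The part of each in the result was not tested. In macrophages low in tumour RNA 12 members were called for hairpin 1 against control, 7 higher and 5 lower, against 11% of genes, 5.56% higher and 5.46% lower, with Srebf2 at 0.48 ± 0.09, Cyp51 at 0.63 ± 0.14 and Abcg1 at -0.63 ± 0.08. In the same cells 15 were called for hairpin 2 against hairpin 1, 3 higher and 12 lower, against 10.5% of genes, 5% higher and 5.49% lower.

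Between classes, the hairpin 1 difference was not the same for every gene. In a fit of both classes with a class by line term, chosen after the data were seen, 4 members differed, where 6.94% of 15907 genes were called, 3.87% with a positive and 3.07% with a negative gap (edgeR). Pmvk was higher in hairpin 1 tumour cells and lower in hairpin 1 macrophages, a gap of -1.36 ± 0.12 (macrophages minus tumour cells, adjusted p = 0.00018). Mylip did the same (-0.88 ± 0.12, adjusted p = 0.0023). Dhcr7 (gap 0.82 ± 0.15) and Abca1 (gap 0.66 ± 0.12) were lower in the tumour cells of that line, and neither was called in its macrophages. Dhcr7 in macrophages stood at 19.4 and 20.0 CPM in control tumours and at 21.3 and 17.9 in hairpin 1 tumours. Without the control anti-PD1 library 2 of the 4, Pmvk and Mylip, remained called, and in macrophages low in tumour RNA 7 members were called, against 10.7% of genes, 6.57% positive and 4.15% negative. For hairpin 2 the same term gave 0 members, where 0.503% of genes were called, and 0 by DESeq2. An unadjusted p under 0.05 was reached by 7 members, and nothing is read from that count without the share of all genes.

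**Figure D5:**
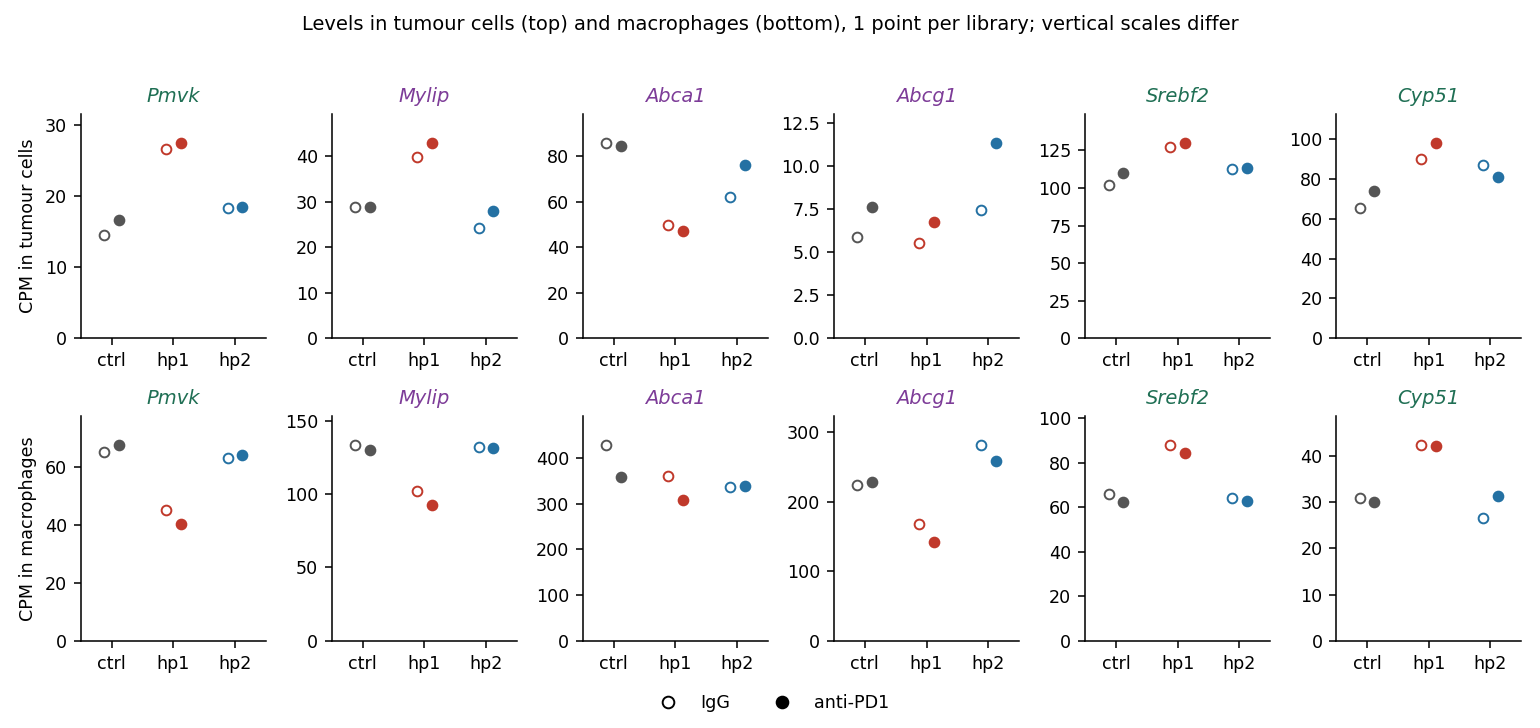
Levels (CPM) of 6 members by line in tumour cells (top) and macrophages (bottom), 1 point per library, open for IgG and filled for anti-PD1; vertical scales differ. Pmvk and Mylip are highest in the hairpin 1 line in tumour cells and lowest there in macrophages, and Srebf2 and Cyp51 are highest in hairpin 1 macrophages.

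Neither pooled contrast gave a call among the members in macrophages. For knockdown against control edgeR called 8 of 12647 genes (0.0633%) and 0 members, and DESeq2 called 0 members. An unadjusted p under 0.05 was reached by 2 members, and nothing is read from that count without the share of all genes. Only Fdps and Fasn stood above both controls in all 4 knockdown libraries, as did 14.3% of genes, and Pmvk stood below, as did 9.61%. The anti-PD1 fits in macrophages and endothelial cells also pooled the hairpin lines and did not pair by line. For anti-PD1 in macrophages edgeR called 0 genes (368 at an unadjusted p under 0.05, 0 members) and DESeq2 0. Hmgcs1, Sqle, Idi1, Fdft1, Nsdhl, Hsd17b7, Scd1 and Scd2 stood above IgG in all 3 lines, 8 members where 13.7% of all genes did so, and Srebf2, Acaca and Mylip stood below, where 16% did. The largest of these, Scd1, differed by 0.43 ± 0.28. In endothelial cells 20 of the 29 members passed the low-count filter. edgeR and DESeq2 called 0 of 7629 genes for knockdown and for anti-PD1, with 312 and 90 genes at an unadjusted p under 0.05. Standard errors of the members there reached 0.84 on the log2 scale, so a 2-fold difference was not detectable in the least precise members.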

How the data were processed

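Single-cell RNA libraries were aligned and counted with Cell Ranger 7.0.1 on mm10, per the submitters' processing notes. The deposited matrices hold whole-number UMI counts per gene and barcode, with no normalization. Their depth and barcode sharing are given in the report. How many tumours entered a library is not given in the sources used here.

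Barcodes with under 300 genes or over 20% mitochondrial UMIs were left out, as were 583 barcodes (0.866% to 1.66% per library) that scanpy 1.11.5 marked as doublets at an expected rate of 0.06. Tumour and macrophage rules are given in the report. Endothelial cells had at least 3 UMIs, of at least 2 genes, among Cdh5, Pecam1, Cldn5, Emcn and Tie1, no Ptprc, at most 1 Tyrobp and under 3 C1q UMIs. The 167 barcodes that met both the tumour and the macrophage rule were left out of both classes, and the 39 that met the tumour and the endothelial rule were counted as endothelial.

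For each library and class the UMI counts of its cells were added up and tested with edgeR 4.0.16 (R 4.3.3, TMM scaling, low-count filter, quasi-likelihood test, Benjamini-Hochberg adjustment over all genes tested, adjusted p under 0.05). Printed CPM are unscaled. Pooled fits held knockdown or control, with both hairpins merged, and treatment (3 residual degrees of freedom). Other fits held line and treatment (2), class with the library as a block (5), or class by line (3, chosen after the data were seen). DESeq2 1.42.0 was an alternative, and the others tried were RLE scaling, no low-count filter, stricter cell rules, doublets kept, a tumour rule without Cdkn2a, cells without a cycling UMI, single libraries left out, the replicate block, and, chosen after the data were seen, host cells low in tumour RNA. On simulated counts with 200 genes changed by 1 on the log2 scale, the fit recovered 100% of them for tumour hairpin 2 against control. It also recovered 100% for pooled knockdown in tumour cells. The simulated lines did not differ beyond the changed genes, unlike the real lines, so the power in these data is not shown.

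Libraries were paired by line, since the 3 lines each gave 1 library per treatment, and the replicate block is the line. Deviations of the IgG and anti-PD1 libraries of a line from their treatment means correlated at 0.71 to 0.88 in tumour cells, 0.38 to 0.56 in macrophages and -0.17 to 0.23 in endothelial cells, so the libraries of a line deviated together in tumour cells and macrophages.

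The 29 members, the other pathway genes and the marker lists were chosen with earlier results of these data known. All members are accounted for, and values per library are printed for called members with the largest changes and for the LXR group. Promoters are from RefSeq (GRCm38.p6). Some genes of these pathways are not reported here.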

Additional observations from a re-analysis of the deposited data

Results flagged for a closer look

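The members in 3 sets of members differed between groups under the same contrast, each by edgeR's quasi-likelihood test of the difference itself. Between the hairpin lines in tumour cells, the log2 difference of hairpin 2 over hairpin 1 was 0.47 for Dhcr7, 0.54 for Abca1, 0.63 for Abcg1, -0.53 for Pmvk, -0.64 for Acat2, -0.57 for Scd2, -0.34 for Elovl6 and -0.63 for Mylip.

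Between the hairpin lines in macrophages, it was 0.56 for Pmvk, 0.77 for Scd1, 0.79 for Abcg1, 0.43 for Mylip, -0.56 for Cyp51, -0.70 for Nsdhl, -0.70 for Stard4, -0.46 for Srebf2 and -0.33 for Scd2. Between classes, the hairpin 1 difference in macrophages minus that in tumour cells was 0.82 for Dhcr7, -1.36 for Pmvk, 0.66 for Abca1 and -0.88 for Mylip. No cause was tested for these differences.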

How the results depend on the processing

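The counts of called members moved as follows. In tumour cells DESeq2 called 6 for pooled knockdown (edgeR 0). In macrophages hairpin 1 against control gave 7, 3 by DESeq2 and 12 in cells low in tumour RNA, and hairpin 2 against control gave 0 and, with no low-count filter, 1. Macrophages of hairpin 2 against hairpin 1 gave 9, 2 by DESeq2 and 15 low in tumour RNA. The class by line term gave 4 for hairpin 1 and 7 low in tumour RNA, and for hairpin 2 it gave 0, and 1 with no filter, with doublets kept, or low in tumour RNA. With single libraries left out, tumour counts ran from 10 to 17 for hairpin 1, 0 to 9 for hairpin 2 and 7 to 10 between hairpins. Macrophage counts ran from 3 to 8 for hairpin 1 and 2 to 12 between hairpins, class by line counts from 2 to 5 and 0 to 1, and class counts from 24 to 26 for macrophages and 18 to 21 for endothelial cells. With single libraries left out, the pooled knockdown and anti-PD1 counts by edgeR were 0 in each class, as was hairpin 2 against control in macrophages. With the replicate block (the line) anti-PD1 called 0 members in each class, and with no replicate block the class comparisons called 24 and 20. The direction reversed for Sqle (-0.049) and Srebf2 (-0.090) of hairpin 1 in tumour cells without a cycling UMI, and the cause was not tested. Of single-gene values in the other settings 622 kept their direction and side of the threshold, 63 lost the call and 2 reversed. Depth limits the endothelial class most, with 25 to 89 cells per library.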

Other observations

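Genes of the same pathways outside the 29 also differed between classes and lines (edgeR). Npc2, which carries cholesterol out of lysosomes, stood in tumour cells at 1940 (IgG) and 1904 CPM (anti-PD1) in the control line, 977 and 898 in the hairpin 1 line and 1606 and 1704 in the hairpin 2 line, and hairpin 1 differed from control by -1.13 ± 0.07 on the log2 scale. Soat1, which esterifies cholesterol for storage, stood at 78.8 and 76.8, 57.9 and 59.5, and 72.5 and 71.1 CPM (-0.50 ± 0.05). Both were lowest in the hairpin 1 line. Me1, a source of NADPH for lipid synthesis, stood at 34.8 and 35.3, 54.7 and 55.8, and 39.1 and 40.6 CPM, highest in the hairpin 1 line.

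In macrophages Nr1h3, which encodes LXR alpha, stood at 32.7 and 32.2 CPM in control tumours, 17.7 and 19.7 in hairpin 1 tumours and 36.9 and 30.6 in hairpin 2 tumours (-0.82 ± 0.14 for hairpin 1 against control), and at 0.34 to 0.39 CPM in tumour cells. Pltp, a phospholipid transfer protein and LXR target, stood at 399 and 421, 281 and 293, and 364 and 400 CPM (-0.54 ± 0.07). Both were lowest in macrophages of hairpin 1 tumours, where Abcg1 and Mylip were also lowest. Abca1 was not called there, at 361 and 307 CPM against 336 and 337 in hairpin 2 tumours. Nr1h3 and Pltp are 2 of 7 further LXR genes listed, and 9.22% of all genes were called in hairpin 1 against control macrophages. Nothing is read from the 2 about LXR genes as a group.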
